A study of Mus musculus with 5 samples.

Results

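The 8 genes described here, Klf1, Epor, Slc4a1, Tfrc, Hba-a1, Hba-a2, Hbb-bs and Hbb-bt, were taken by symbol from the 21755 protein-coding genes of the GENCODE mouse annotation on the autosomes and the X chromosome, as genes that mark the red cell lineage. DNA methylation was measured at them by whole-genome bisulfite sequencing, in which unmethylated cytosines are read as thymine and methylated ones as cytosine, in AML blasts sorted from 5 mice, 1 library each. All 5 libraries carried Cebpa-/p30, in which the truncated p30 form is the remaining product of the myeloid transcription factor gene Cebpa. In 2 libraries Tet2 was intact (Cebpa-/p30 Tet2+/+, numbers 23 and 24) and in 3 it was deleted (Cebpa-/p30 Tet2-/-, numbers 5, 7 and 8). The labels give the strain as C57BL/6, and the study names C57BL/6J donors. By the study's methods the marrow was first transplanted into irradiated congenic recipients. After recovery, injections of Poly(I)-Poly(C) induced recombination of the alleles in them by Mx1-Cre, which interferon signalling switches on in blood cells and other tissues. Donor-derived CD45.2+ cells negative for CD3, B220 and Ter119 were sorted from moribund recipients. Ter119 marks maturing red cells, so the measured cells were gated against the cells in which most of these genes are highly expressed.

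Red cells arise from progenitors shared with the myeloid lineage. Klf1, a zinc finger transcription factor, switches on the globin genes and many other red cell genes. Epor is the receptor of erythropoietin, the hormone that keeps red cell progenitors alive, and Tfrc, the transferrin receptor, imports the iron that heme needs but serves every dividing cell. Slc4a1 encodes band 3, the anion exchanger of the red cell membrane. Hba-a1 and Hba-a2 encode the adult alpha chains of hemoglobin and Hbb-bs and Hbb-bt the adult beta chains, each pair lying in a cluster with embryonic globin genes and controlled by distant enhancers, which for the alpha cluster lie in introns of the neighbouring gene Nprl3 and for the beta cluster form the locus control region upstream of the embryonic genes. TET2 oxidises methylated cytosine, a step towards its removal.

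The libraries held 63111735 to 110752967 calls on 21353092 CpG dyads (the paired CpGs of both strands), 2.96 to 5.19 calls per dyad. Over all dyads, the methylation level, which is the share of calls that were methylated, stood at 67.3% (library 23) and 62.3% (library 24) with Tet2 and at 70.9% (library 5), 74.8% (library 7) and 68.4% (library 8) without it, so library 24 was the lowest and all 3 Tet2-/- libraries stood above both Tet2+/+ libraries over the genome as a whole. Over all genes tested, the median difference between the group means was 2.22 percentage points at promoters, 4.95 in gene bodies and 6.00 in flanks. The last coding exon of Tet2, with 27 dyads, had 83 and 111 calls in the Tet2+/+ libraries and 0 in each Tet2-/- library, which allows at most 2.37% to 4.23% of the depth of the 500 kb on each side, so the Tet2 genotype of every library matched its label. The Cebpa alleles were not checked. The sorted cell type could be checked only through methylation. The promoters of 8 myeloid genes had a median Tet2+/+ level of 10.1% (0.790% to 68.8%) and those of 6 lymphoid genes a median of 63.0%. All promoters tested had a median of 13.3%, and those of the other erythroid genes described below 9.34%. These medians therefore do not tell myeloid from erythroid cells.

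A promoter was the 1000 bp on each side of the gene start, the definition of the study's methods. Positions are in GRCm38. Klf1 lies on the plus strand of chromosome 8 (84901928 to 84905291), Epor on the minus strand of chromosome 9 (21958897 to 21963506), Slc4a1 on the minus strand of chromosome 11 (102348824 to 102366203) and Tfrc on the plus strand of chromosome 16 (32608920 to 32632794). Hba-a1 (32283511 to 32284465) and Hba-a2 (32296489 to 32297298) lie on the plus strand of chromosome 11. Hbb-bs (103826534 to 103828096) and Hbb-bt (103812524 to 103813996) lie on the minus strand of chromosome 7. The globin copies differ so little that a read may not be placed. The transcribed spans of Hba-a1 and Hba-a2 had 1 mismatch in 794 aligned bases (99.9% identity), and the 250 bases before their RefSeq starts had 0 mismatches in 247. The spans of Hbb-bs and Hbb-bt were 96.6% identical and the 250 bases before their starts 73.3% identical. Of the 75-base windows of the converted genome, 0% were unique in the bodies of Hba-a1 and Hba-a2, 29.4% in that of Hbb-bs and 24.9% in that of Hbb-bt, against 97.2% in Klf1, 100% in Epor, 98.0% in Slc4a1 and 96.9% in Tfrc.

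The sequence before the start shows what could be measured. For 5 of the members it is printed from RefSeq (GRCm38) over the 250 bases before the RefSeq start, which can differ from the gene start of the annotation, 5′ to 3′ on the strand of the gene, with every CpG in capitals, because the number and the uniqueness of these CpGs set how much each promoter value rests on. Sequences of this kind were matched for 7 of the 8 members, all except Slc4a1.
Klf1 (chr8:84901732-84901981, plus strand): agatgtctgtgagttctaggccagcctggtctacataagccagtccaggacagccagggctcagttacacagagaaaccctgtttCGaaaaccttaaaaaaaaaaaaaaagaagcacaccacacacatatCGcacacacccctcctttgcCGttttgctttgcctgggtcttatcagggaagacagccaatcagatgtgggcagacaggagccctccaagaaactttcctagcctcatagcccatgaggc
Epor (chr9:21963577-21963826, minus strand): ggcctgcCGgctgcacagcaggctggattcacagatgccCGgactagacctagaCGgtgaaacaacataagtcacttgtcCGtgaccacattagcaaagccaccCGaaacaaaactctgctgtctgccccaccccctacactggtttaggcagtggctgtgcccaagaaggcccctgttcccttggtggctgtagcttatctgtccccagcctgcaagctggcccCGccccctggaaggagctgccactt
Hba-a1 (chr11:32283422-32283671, plus strand): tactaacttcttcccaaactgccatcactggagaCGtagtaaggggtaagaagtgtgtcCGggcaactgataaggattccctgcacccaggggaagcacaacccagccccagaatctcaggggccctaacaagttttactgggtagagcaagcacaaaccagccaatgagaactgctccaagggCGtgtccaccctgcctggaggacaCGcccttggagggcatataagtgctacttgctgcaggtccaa
Hbb-bs (chr7:103827929-103828178, minus strand): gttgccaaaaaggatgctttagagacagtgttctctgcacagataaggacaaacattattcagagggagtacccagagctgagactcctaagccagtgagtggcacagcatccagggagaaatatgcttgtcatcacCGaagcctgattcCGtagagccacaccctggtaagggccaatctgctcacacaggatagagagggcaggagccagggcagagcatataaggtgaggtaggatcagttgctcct
Hbb-bt (chr7:103813924-103814173, minus strand): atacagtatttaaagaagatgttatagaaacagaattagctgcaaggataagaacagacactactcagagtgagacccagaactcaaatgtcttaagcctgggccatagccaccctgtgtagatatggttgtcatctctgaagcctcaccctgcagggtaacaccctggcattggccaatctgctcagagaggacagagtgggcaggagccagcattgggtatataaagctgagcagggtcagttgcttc

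The stretch before Klf1 holds 3 CpGs, which had 8 to 16 calls per library. That before Epor holds 6 CpGs with 13 to 43 calls. Of the globin genes, the stretch of Hba-a1 holds 4 CpGs and that of Hba-a2 also 4, and none of them had a call in any of the 5 libraries. The stretch of Hbb-bs holds 2 CpGs with 4 to 19 calls, and that of Hbb-bt holds no CpG. The bases themselves carry the letters of known elements of erythroid and other promoters. GATAA (or TTATC), the core read by GATA factors, occurred in 1 place in each of the 5 printed stretches, in neither of the pair of stretches that RefSeq gives for Tfrc and in 22.6% of all 32851 RefSeq promoter stretches of the same length. CCAAT (or ATTGG) occurred in 1 place before Klf1, Hba-a1 and Hbb-bs, in 3 before Hbb-bt and in none before Epor, against 33.8% of all stretches. CACCC (or GGGTG), which KLF1 reads, occurred in 1 place before Klf1 and Hbb-bs, in 2 before Epor and Hba-a1 and in 3 before Hbb-bt, against 52.0% of all stretches. The pair of stretches for Tfrc held 2 and 3. TATAA (or TTATA) occurred before the 3 globin genes and before 1 start of Tfrc and was not found before Klf1 or Epor, against 22.8%. These are matches of letters on either strand and are not shown to be bound sites.

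The first comparison asked whether the promoters of erythroid genes differed with the loss of Tet2. In the Tet2+/+ libraries the 8 promoters ranged from nearly unmethylated (Tfrc, 5.60%) to highly methylated (Hbb-bs, 86.1%). Hba-a1 was the member whose promoter passed the test, and its level rose from 41.5% to 86.6%. A region was tested where each library had at least 20 calls, with edgeR's quasi-likelihood test of methylated and unmethylated calls, and Benjamini-Hochberg adjustment over all regions of its kind at 0.05. By that minimum 5 of the 8 promoters were tested and 1 was called higher, against 1.06% of all 19455 promoters tested (206 higher, and 3, or 0.0154%, lower). All 3 Tet2-/- libraries lay above both Tet2+/+ libraries at 3 of the 5 promoters tested, against 32.8% of all promoters tested. Each level is an average over the sorted cells, so a different mix of cells and a different level in the same cells cannot be told apart. With 2 libraries against 3 and few calls a region, the test misses many differences, so a promoter that did not pass is not shown to be alike in both genotypes.

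**Figure D1:**
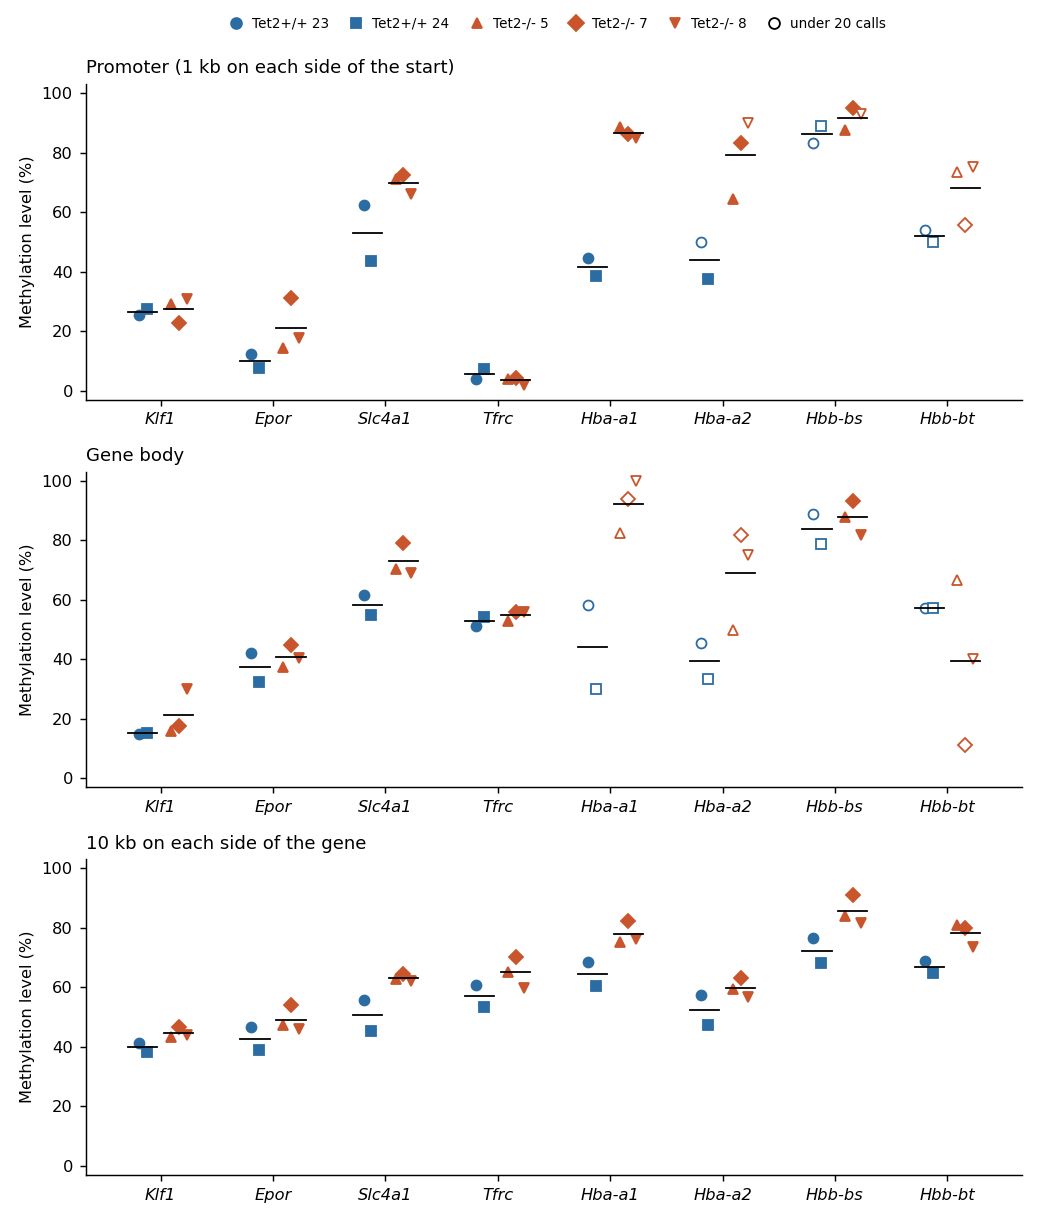
Methylation level (%) of the 8 genes in each library, for the promoter, the gene body and the 10 kb on each side. Each point is 1 library, open where it rests on fewer than 20 calls, and black lines are group means. At the Hba-a1 promoter the 3 Tet2-/- libraries sit between 85.0% and 88.6% and the 2 Tet2+/+ libraries at 38.5% and 44.4%, while the groups overlap at the promoters of Klf1 and Tfrc.

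The Klf1 promoter stood at 25.3% and 27.3% in Tet2+/+ and at 29.0%, 22.8% and 30.9% in Tet2-/- (132 to 312 calls per library). The groups overlapped and the means, 26.3% ± 1.39 (SD, n = 2) and 27.6% ± 4.26 (SD, n = 3), differed by 1.27 points (edgeR adjusted p = 0.944). This mean level covered a highly methylated and a nearly unmethylated part. More than 250 bp before the start the Tet2+/+ libraries had 92.6% and 84.0%, whereas more than 250 bp after it they had 6.50% and 9.09%, on 27 of the 38 dyads. The Tet2-/- libraries had 91.7%, 98.0% and 78.4% before the start and 6.59%, 4.82% and 11.8% after it, so the sharp drop within the gene was present in all 5 libraries. The start itself was methylated. On the 3 dyads within 250 bp of it the levels were 56.25% and 75.0% in Tet2+/+ and 75.0%, 78.6% and 88.9% in Tet2-/-, with overlapping groups (8 to 16 calls per library).

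The Epor promoter stood at 12.2% and 7.55% in Tet2+/+ and at 14.3%, 31.0% and 17.8% in Tet2-/-. All 3 Tet2-/- libraries were above both Tet2+/+ libraries, and library 7 stood far above the other two. Averaged, Tet2+/+ had 9.89% ± 3.31 (SD, n = 2) and Tet2-/- 21.1% ± 8.81 (SD, n = 3), and the difference of 11.2 points did not pass (edgeR adjusted p = 0.233) and was 6.19 points without library 7. Within 250 bp of the start the levels were 4.55% and 5.26% in Tet2+/+ and 2.78%, 24.5% and 6.90% in Tet2-/-, so that close to the start library 7 alone stood apart (22 to 49 calls per library).

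The Tfrc promoter was the least methylated of the 8, at 3.98% and 7.23% in Tet2+/+ and 3.95%, 4.39% and 2.06% in Tet2-/-. The groups overlapped, and the difference of -2.14 points did not pass (edgeR adjusted p = 0.487) and was -0.509 points without library 24 and -3.76 without library 23. Within 250 bp of the start, where 53 dyads lie, every library had 2% or less.

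The Slc4a1 promoter stood at 62.4% and 43.5% in Tet2+/+ and at 71.2%, 72.5% and 66.1% in Tet2-/-. The groups did not overlap, but the Tet2+/+ libraries were far apart. The means, 52.9% ± 13.4 (SD, n = 2) and 69.9% ± 3.36 (SD, n = 3), differed by 17.0 points without passing the test (edgeR adjusted p = 0.286), and by 7.54 points without library 24 and 26.4 without library 23. The outermost annotated start of Slc4a1 lies 923 bp before that of its principal transcript. Around the latter, a window chosen after its values were seen, the levels were 57.3% and 48.6% against 73.8%, 68.7% and 70.2% (edgeR adjusted p = 0.208).

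The Hba-a1 promoter stood at 44.4% and 38.5% in Tet2+/+ and at 88.6%, 86.1% and 85.0% in Tet2-/-, on 27, 26, 35, 36 and 20 calls. The groups were far apart and the libraries of each were close together. Averaged, Tet2+/+ had 41.5% ± 4.23 (SD, n = 2) and Tet2-/- 86.6% ± 1.83 (SD, n = 3), which is 45.1 points more (edgeR adjusted p = 0.0409), the 28th largest gain among the tested promoters. The value describes the edges of the region and not the start itself. Of its calls, 68 lay more than 250 bp before the start, 74 more than 250 bp after it and 2 in the stretch between. Both edges moved, from 35.7% and 43.8% to 92.9%, 75.0% and 75.0% before the start and from 58.3% and 30% to 85.7%, 94.7% and 91.7% after it. Of the promoter's calls, 80 lay on 26 dyads without any unique 75-base window, which cannot be assigned between Hba-a1 and its copy. No dyad of the gene body was unique, so the edge after the start is not shown to be that of Hba-a1 alone. When any of the 5 libraries was left out the difference stayed at 42.1 to 48.1 points and the call was lost (edgeR adjusted p from 0.0790 to 0.415), in fits that called 0% (without library 24) to 1.51% (without library 5) of all promoters. Limma after subtraction of each library's median gave 0.104 and called 0.0463% of all promoters.

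Hba-a2, Hbb-bs and Hbb-bt had too few calls to be tested. The Hba-a2 promoter stood at 50% and 37.5% in Tet2+/+ and at 64.3%, 83.3% and 90.0% in Tet2-/- on 10 to 32 calls per library, with all Tet2-/- libraries above. With the calls of Hba-a1 and Hba-a2 added, since their shared stretch cannot be assigned, the pair had 46.3% and 37.9% against 77.8%, 85.0% and 86.7% on 30 to 63 calls (edgeR adjusted p = 0.0399). The Hbb-bs promoter was high throughout, at 83.3% and 88.9% in Tet2+/+ and 87.5%, 95% and 92.9% in Tet2-/- (6 to 24 calls). The Hbb-bt promoter stood at 53.8% and 50% in Tet2+/+ and at 73.3%, 55.6% and 75.0% in Tet2-/- (8 to 18 calls). With the calls of this pair added, the levels were 63.2% and 68.4% against 82.1%, 76.3% and 86.4% on 19 to 39 calls, so that the groups did not overlap, by 15.8 points between the means, and the pair missed the minimum of 20 calls.

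The Tet2+/+ promoter levels thus ran in the order Tfrc, Epor, Klf1, Hba-a1, Hba-a2, Hbb-bt, Slc4a1 and Hbb-bs. Klf1 and Epor did not overlap in Tet2+/+. Nor did Epor and Tfrc (7.55% and 12.2% against 3.98% and 7.23%), but library 24 had nearly equal levels at both, 7.55% and 7.23%. Their separation thus rests on library 23. The 4 genes from Hba-a1 to Slc4a1 overlapped or touched their neighbours in this order, within 37.5% to 62.4%, and were not told apart. Of 17572 promoters with at least 50 calls in every library, those whose 5 levels lay closest to Klf1 (root mean square difference) were Tuba4a (1.80 points), Csnk1e (1.94) and Irx6 (2.17). Closest to Epor were Cldn3 (1.46), Mak (1.68) and Tfap2e (1.97), closest to Slc4a1 were Teddm1b (2.25), Lcn5 (2.37) and Tpsab1 (2.67), and closest to Tfrc were Cdkn3 (0.441), Csgalnact2 (0.529) and Ralgapa1 (0.717).

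The second comparison concerned the gene bodies. Methylation rose across the body of Slc4a1, from 58.3% to 72.9%, and the bodies of Klf1, Epor and Tfrc did not pass the test. Of the 8 bodies 4 had enough calls, and 1 was called higher, against 15.5% of all 20715 bodies tested. The Slc4a1 body stood at 61.6% and 54.9% in Tet2+/+ and at 70.4%, 79.2% and 69.1% in Tet2-/-, on 1018 to 1892 calls per library. The groups did not overlap, as in 46% of all bodies, and the difference of 14.6 points had an edgeR adjusted p of 0.00289. Without Tet2+/+ library 24 the difference was 11.2 points and the adjusted p 0.332, and limma gave 0.110.

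The Klf1 body stood at 15.0% and 15.2% in Tet2+/+ and at 15.8%, 17.6% and 30.1% in Tet2-/-. All Tet2-/- libraries were above, library 8 by far and the other two by little. The difference of 6.07 points did not pass (edgeR adjusted p = 0.302) and was 1.59 points without library 8. The Klf1 body was among the least methylated, with 3.15% of all tested bodies having a lower Tet2+/+ mean. The Epor body stood at 42.1% and 32.5% against 37.4%, 44.8% and 40.3% (edgeR adjusted p = 0.619), and the Tfrc body at 51.3% and 54.3% against 52.9%, 55.9% and 55.8% (edgeR adjusted p = 0.793). In both the groups overlapped.

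The globin bodies had 4 to 33 calls per library. Hba-a1 stood at 58.3% and 30% in Tet2+/+ and at 82.4%, 93.8% and 100% in Tet2-/- (10 to 17 calls). With the minimum lowered to 10 calls it passed the test, and Slc4a1 was the other member that did, against 15.1% of all bodies. The bodies of Hba-a1 and Hba-a2 lie wholly within their promoter regions, so their values reuse promoter calls and are not a separate observation. Hba-a2 stood at 45.5% and 33.3% against 50%, 81.8% and 75.0% (4 to 18 calls). Hbb-bs stood at 88.9% and 78.6% against 87.9%, 93.3% and 81.8%, with overlapping groups, and Hbb-bt, at 57.1% and 57.1% against 66.7%, 11.1% and 40.0%, rested on 5 to 9 calls per library.

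The third comparison took the 10 kb on each side of each gene, which had 234 to 2741 calls per library and could be tested at all 8 members. The flanks of Hba-a1, Slc4a1 and Hbb-bs rose, against 21.6% of all 21492 flanks tested. Those of Hba-a1 and Hba-a2, and those of Hbb-bs and Hbb-bt, partly cover the same ground. Flanks also hold the part of each promoter region outside the gene, and those of Hba-a1 hold calls of the neighbouring genes Hba-x and Hbq1b. Gains in these regions are therefore not independent. The Hba-a1 flanks stood at 68.4% and 60.5% in Tet2+/+ and at 75.4%, 82.2% and 76.1% in Tet2-/-, 13.5 points apart (edgeR adjusted p = 0.00442). The Hbb-bs flanks stood at 76.5% and 68.1% against 84.1%, 91.0% and 81.6%, 13.2 points apart (edgeR adjusted p = 0.0194). The Slc4a1 flanks stood at 55.8% and 45.3% against 62.8%, 64.3% and 62.1%, 12.5 points apart (edgeR adjusted p = 0.0198). In these 3, all Tet2-/- libraries were above both Tet2+/+ libraries, and so were they at the flanks of Klf1 and Hbb-bt, against 53.6% of all flanks. None of the 3 calls was made by limma (adjusted p 0.0688, 0.0688 and 0.0894), which called 0 of all 21492 flanks (6692 had an unadjusted p under 0.05), and none by edgeR without Tet2+/+ library 24 (adjusted p 0.375, 0.511 and 0.597), a fit that called 0.689% of all flanks. The calls of Hbb-bs (adjusted p 0.0821) and Slc4a1 (0.0882) were also lost without library 5, and that of Hbb-bs without library 7 (0.0926). With 5 kb on each side that of Slc4a1 was lost (0.0759), and with the calls of each globin pair summed the alpha pair had an edgeR adjusted p of 0.0687 and the beta pair 0.0576.

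The flanks of the other 5 did not pass. Those of Hbb-bt differed by 11.3 points (66.8% ± 3.05, SD, n = 2, against 78.2% ± 3.98, SD, n = 3, edgeR adjusted p = 0.103), those of Tfrc by 7.87, those of Hba-a2 by 7.39, those of Epor by 6.47 and those of Klf1 by 4.94 points, where the median over all genes was 6.00. Without library 24 these became 4.19 points at Tfrc, 2.34 at Hba-a2, 2.58 at Epor and 3.45 at Klf1, and the difference at Slc4a1 became 7.27. Without library 23 they became 11.6 points at Tfrc, 12.4 at Hba-a2, 10.4 at Epor, 6.44 at Klf1 and 17.7 at Slc4a1. The median of 6.00 is that of all 5 libraries. None is given without library 23 or 24, so these values cannot be set against it. Without library 8 the Hbb-bt flanks passed (edgeR adjusted p = 0.0456). The sides were unequal at Tfrc and Hba-a2. Downstream of Tfrc the levels were 54.2% and 50.7% in Tet2+/+ and 65.4%, 71.1% and 66.4% in Tet2-/-, 15.2 points apart, and upstream they were 70.6% and 57.4% against 65.1%, 68.7% and 50.6%, with overlapping groups. Upstream of Hba-a2 the levels were 60.5% and 48.0% against 66.0%, 75.3% and 66.7%, and downstream, where Hbq1a lies, 53.3% and 46.2% against 49.1%, 46.9% and 46.1%. The difference between the sides was not tested. Over the 24 regions of the 8 members, 8 reached the smallest p that 2 against 3 libraries allow in an exact two-sided permutation test, 0.1, namely the 3 regions each of Slc4a1 and Hba-a1 and the flanks of Klf1 and Hbb-bs. With levels averaged per dyad 12 did, and the Hbb-bs flanks did not (p = 0.2 in the exact permutation test). No share over all genes was computed for such levels. Without that averaging, 20% of promoters, 30.3% of bodies and 35.8% of flanks reached it, over all genes with at least 20 calls in each library. The 24 regions also hold 3 promoters and 4 bodies below that minimum, among them the Hba-a1 body. Regions of the same gene share calls, and the Hba-a1 body lies wholly in its promoter region, so the 8 are not independent.

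Finer detail came from windows of 1 kb with at least 10 calls in each library. Along the 6 loci, 254 windows qualified, 102 of them (40.2%) with all Tet2-/- libraries above both Tet2+/+ libraries and 7 (2.76%) with all below, against 28.7% and 2.6% of all 1643430 windows of the genome. At Slc4a1 the share above was 58.3% (21 of 36 windows, none below), at the alpha-globin cluster 44.3%, at Epor 42.3%, at Tfrc 36.1%, at Klf1 28% and at the beta-globin cluster 25.6%. These are descriptions of neighbouring windows, which are not independent.

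**Figure D2:**
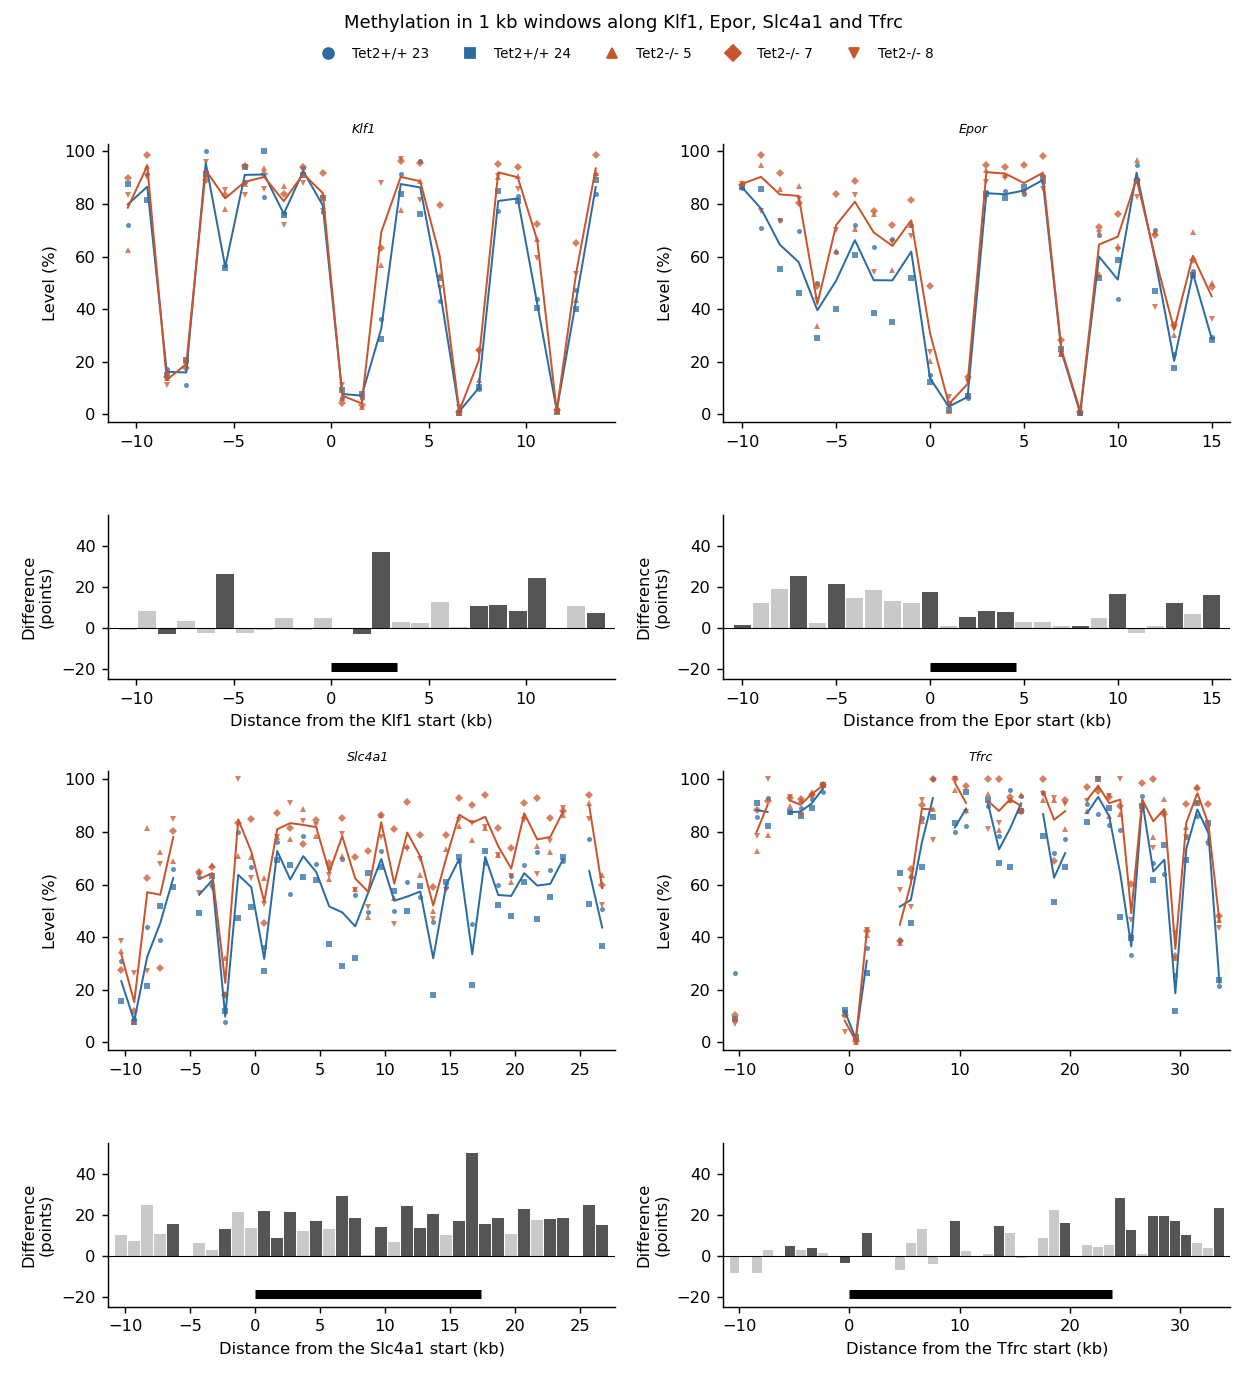
Methylation level (%) and difference between group means (percentage points) in 1 kb windows along 4 genes, by distance from the gene start in kb along the direction of transcription. Points are libraries, lines group means, dark bars windows whose groups do not overlap, and the black bar on the lower axis the gene. Klf1 has a trough inside the gene, after its start, with a gain of 36.7 points just behind it, and at Slc4a1 21 of 36 windows have all Tet2-/- libraries above.

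Within Klf1 the drop after the start continued through the middle of the gene. The window at 84903001 to 84904000, with 70 dyads in exonic sequence, had 6.39% and 7.92% in Tet2+/+ and 2.78%, 3.69% and 6.02% in Tet2-/-, all below. The next window, 84904001 to 84905000, at the 3′ end of the gene, had 36.4% and 28.8% in Tet2+/+ and 56.7%, 63.2% and 88.0% in Tet2-/-, the largest gain at the locus with 36.7 points (83 to 120 calls). The high level of library 8 there is the same library that was high over the whole Klf1 body. Upstream of the gene, 84896001 to 84897000 had 56.7% and 55.6% against 78.0%, 83.3% and 85.2%. The third largest gain, 24.1 points, fell in the genes Dnase2a and Mast1 on the far side.

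At Epor, 21962001 to 21963000 and 21961001 to 21962000 towards the 5′ end of the gene were low in every library. The former had 4.29% and 1.69% in Tet2+/+ and 1.36%, 3.98% and 6.56% in Tet2-/-, and the latter 6.42% and 6.84% against 7.95%, 14.4% and 12.5%, all above. The largest gains lay before the gene, in the neighbouring Rgl3, with 69.6% and 46.3% against 86.9%, 80.5% and 82.0% at 21970001 to 21971000. There Tet2+/+ library 24 was lowest, as it was at the next largest, 21968001 to 21969000 (61.8% and 40.0% against 62.1%, 83.9% and 70.0%).

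At Slc4a1 the 36 windows had a median difference of 15.4 points, where the genome's windows had 5.81. The largest gain was at the 3′ end of the gene, 102349001 to 102350000, with 45.2% and 21.9% in Tet2+/+ and 76.9%, 90.2% and 83.3% in Tet2-/-, 49.98 points apart (18 to 41 calls). The next, 102359001 to 102360000, had 69.6% and 29.2% against 70.8%, 85.2% and 79.2%, with library 24 far below library 23. The lowest window, 102375001 to 102376000, had 8.75% and 7.56% in Tet2+/+ and 7.59%, 11.9% and 26.4% in Tet2-/-, with overlapping groups. A trough 2.30 kb before the outermost start, 102368001 to 102369000, had 7.69% and 11.9% in Tet2+/+ and 31.9%, 18.2% and 17.9% in Tet2-/-, all above (26 to 69 calls).

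At Tfrc the windows over the promoter were low in every library, and over the promoter as a whole the groups overlapped. At 32608001 to 32609000 the levels were 11.7% and 12.3% in Tet2+/+ and 10.7%, 10.3% and 3.80% in Tet2-/-, and at 32609001 to 32610000 they were 0.794% and 1.90% against 0.287%, 0.673% and 0.637%. All the Tet2-/- libraries were below in both, by small amounts. In the former, library 8 stood apart at 3.80%, and the other Tet2-/- levels, 10.7% and 10.3%, were close to those of Tet2+/+. Levels in the latter lay near the share of calls read as methylated on mitochondrial DNA, 0.807% (library 5) to 0.989% (library 7). No direction is therefore drawn from that window. The largest gains lay beyond the 3′ end, at 32633001 to 32634000 (80.8% and 47.5% against 87.0%, 90.0% and 100%) and 32642001 to 32643000 (21.6% and 23.8% against 46.7%, 48.1% and 43.4%). In the latter the libraries of each group were close to each other.

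**Figure D3:**
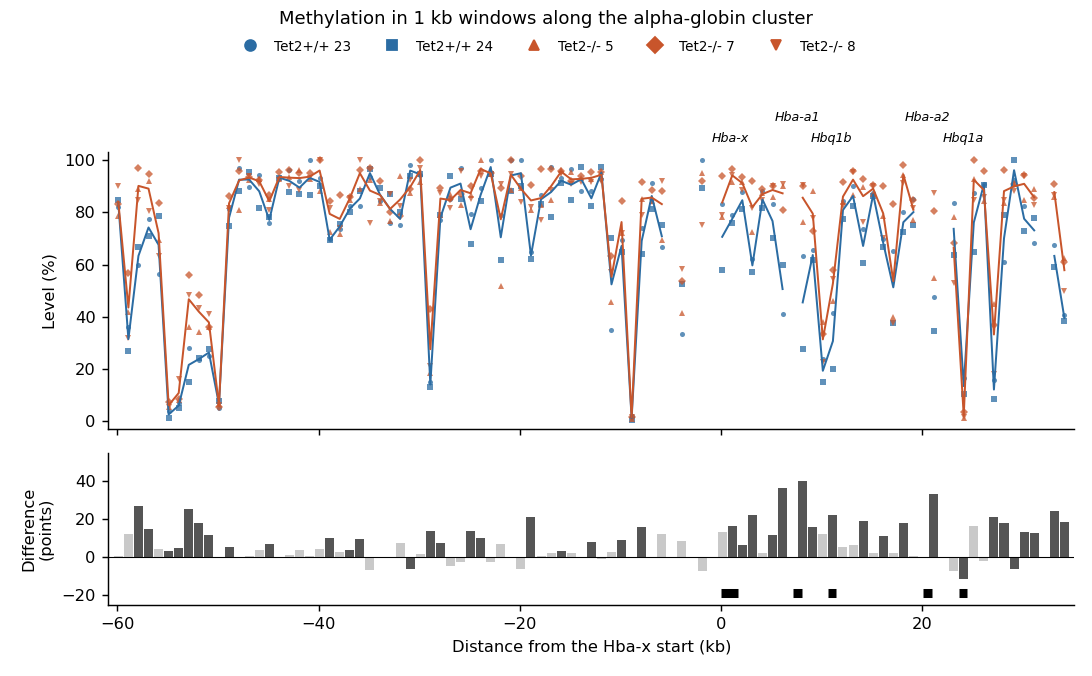
Methylation level (%) and difference between group means (percentage points) in 1 kb windows along the alpha-globin cluster, by distance from the start of Hba-x in kb. Points are libraries, lines group means, dark bars windows whose groups do not overlap, and black bars the globin genes. The window of Hba-a1 has the largest gain, 40.1 points, and that of Hbq1a a loss of 11.4 points.

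In the alpha-globin cluster, scanned from 60 kb before Hba-x to 10 kb beyond Hbq1a, 88 windows qualified and the 3 with the largest gains lay in or just before the adult genes. The window at 32284001 to 32285000, which holds the 3′ part of Hba-a1 and sequence beyond it, had 63.2% and 27.8% in Tet2+/+ and 76.3%, 90.0% and 90.5% in Tet2-/-. The one before the gene, 32282001 to 32283000, had 41.2% and 60% against 90.0%, 81.0% and 90.9%, on 11 to 21 calls. The window at 32297001 to 32298000, in Hba-a2, had 47.6% and 34.5% against 54.8%, 80.6% and 87.5%. Depth followed uniqueness here. In the Hba-a1 promoter the 3 unique dyads averaged 4.13 calls per library and the 27 others 0.607, so that the 3 unique dyads gave 62 calls and the others 82.

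The promoter window of Nprl3, 32267001 to 32268000, was the lowest of the cluster, at 1.75% and 0.457% in Tet2+/+ and 0.946%, 1.42% and 1.67% in Tet2-/-. Inside the gene, 28.9 kb before the start of Hba-x, 1 intronic window was the lowest of those wholly within introns and was chosen after its values were seen. At 32247001 to 32248000 it had 15.0% and 13.0% in Tet2+/+ and 18.3%, 43.1% and 21.2% in Tet2-/- (40 to 66 calls). All Tet2-/- libraries were above, with library 7 alone far above.

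The theta-like genes Hbq1a and Hbq1b, a second near-identical pair (94.8% identity), moved in opposite directions. The body of Hbq1b rose, from 36.6% and 18.9% in Tet2+/+ to 43.0%, 52.3% and 50% in Tet2-/- (edgeR adjusted p = 0.0368). The body of Hbq1a fell, from 16.9% and 8.79% to 1.1%, 2.60% and 0.885%, on 91 to 231 calls per library (edgeR adjusted p = 0.000455), where 0.0676% of all bodies were called lower. Its promoter, 33.7% and 26.3% against 15.8%, 12.9% and 9.59%, was lower in every Tet2-/- library without passing the test (edgeR adjusted p = 0.109). That region holds the whole body, 26 of its 39 dyads, so it is not a separate observation. Restricted to dyads in unique 75-base windows, an alternative added after seeing the data, the Hbq1a body differed by -12.5 points (edgeR adjusted p = 0.00393) and that of Hbq1b by 20.7 (0.0772). The body of Hba-x, the embryonic alpha-like gene, rose from 77.1% to 91.7% (edgeR adjusted p = 0.0113). In edgeR without 1 library, the call of Hbq1b held without library 23 and was lost without library 24, 5, 7 or 8. Its adjusted p was 0.0506 to 0.0775 without library 5, 7 or 8, and its difference was 11.8 in place of 20.7 points without library 24. The call of Hba-x was lost without library 24 (11.2 in place of 14.6 points). That of Hbq1a was lost without library 23 (-7.26 in place of -11.3 points). Hbq1b was not called by DESeq2 (adjusted p = 0.0649), by limma (0.0926) or with dyads called in all 5 libraries (0.0622), and limma did not call Hba-x (0.0523).

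**Figure D4:**
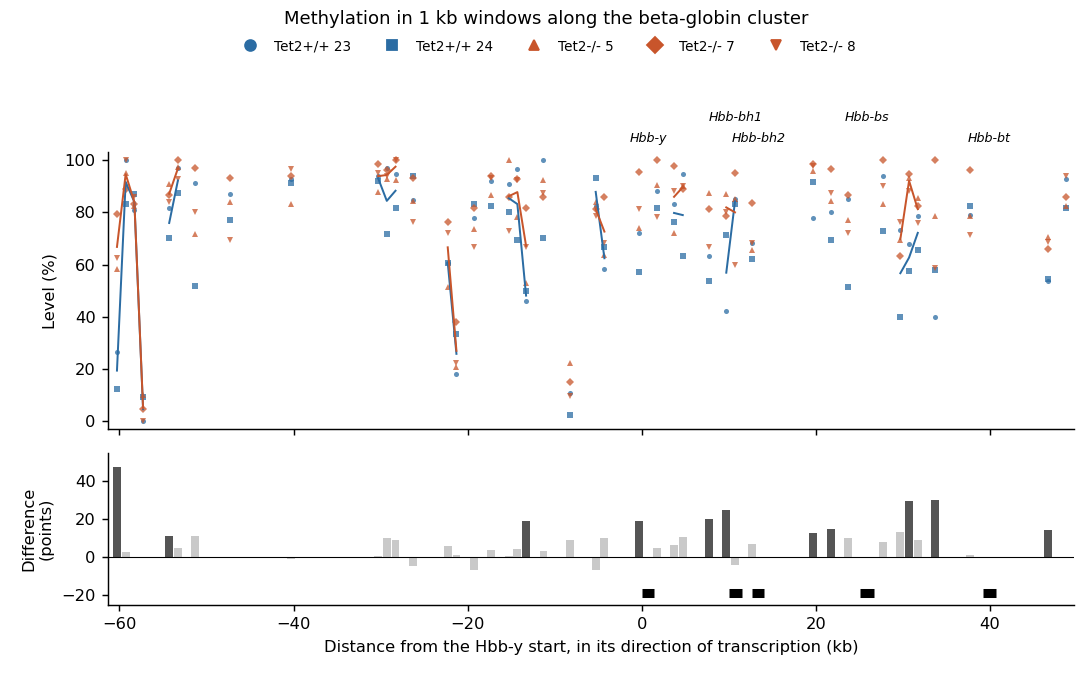
Methylation level (%) and difference between group means (percentage points) in 1 kb windows along the beta-globin cluster, by distance from the start of Hbb-y in kb, in its direction of transcription. Points are libraries, lines group means, dark bars windows whose groups do not overlap, and black bars the globin genes. Of 112 windows 43 had enough calls, and the largest gain, 47.4 points, lies 60.3 kb before Hbb-y.

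In the beta-globin cluster 43 of 112 windows had enough calls, and 11 of them (25.6%) had all Tet2-/- libraries above and none all below. Among windows near the adult genes, 103822001 to 103823000, between Hbb-bs and Hbb-bt, had 67.8% and 57.5% in Tet2+/+ and 93.3%, 94.7% and 88.2% in Tet2-/- (17 to 90 calls). At 103819001 to 103820000 the levels were 40.0% and 57.9% against 78.6%, 100% and 58.8%, on 12 to 20 calls. The far upstream window 103913001 to 103914000, outside protein-coding genes, had 26.5% and 12.2% in Tet2+/+ and 58.3%, 79.4% and 62.5% in Tet2-/-, the largest gain of the cluster with 47.4 points (24 to 68 calls).

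On the side of the embryonic genes where the locus control region lies, 2 of the 43 windows of the cluster (4.65%) averaged under 20%, against 2.70% of all windows. Whether either falls in that region was not examined. The window 8.29 kb before Hbb-y, 103861001 to 103862000, had 10.8% and 2.22% in Tet2+/+ and 22.2%, 15.0% and 9.68% in Tet2-/- (31 to 63 calls). The groups overlapped. The other was 103910001 to 103911000, 57.3 kb before Hbb-y, where all 5 libraries had 10.0% or less, on 3 dyads with 11 to 21 calls. At 103874001 to 103875000, 21.3 kb before Hbb-y, the mean was 26.5%, from 18.2% and 33.3% against 20.6%, 37.9% and 22.2%. The embryonic genes had promoters at 71.8% and 54.1% against 71.2%, 80.0% and 76.0% (Hbb-y), 60% and 74.3% against 86.4%, 84.4% and 72.7% (Hbb-bh1) and 72.3% and 61.9% against 68.5%, 86.4% and 71.1% (Hbb-bh2), and none passed the test.

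The members were set beside 56 other erythroid genes in 6 lists. At promoters none of the 54 tested was called by edgeR after adjustment, 10 had an unadjusted p under 0.05 (18.1% of all promoters did), and the likelihood ratio test of edgeR called 1, Hbq1a, against 4.7% of all promoters. The median difference was 1.39 points, where all promoters had 2.22. Erythroid transcription factor promoters were mostly unmethylated, with a Tet2+/+ median of 1.90% over 10 genes. Gata1, the master regulator of the lineage, stood at 83.7% and 77.5% in Tet2+/+ and 84.4%, 89.7% and 84.5% in Tet2-/- (edgeR adjusted p = 0.556). Tspo2 had the largest gain of the 54, 21.9 points (edgeR adjusted p = 0.138). Gata1 and Tspo2 were chosen after their values were seen.

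**Figure D5:**
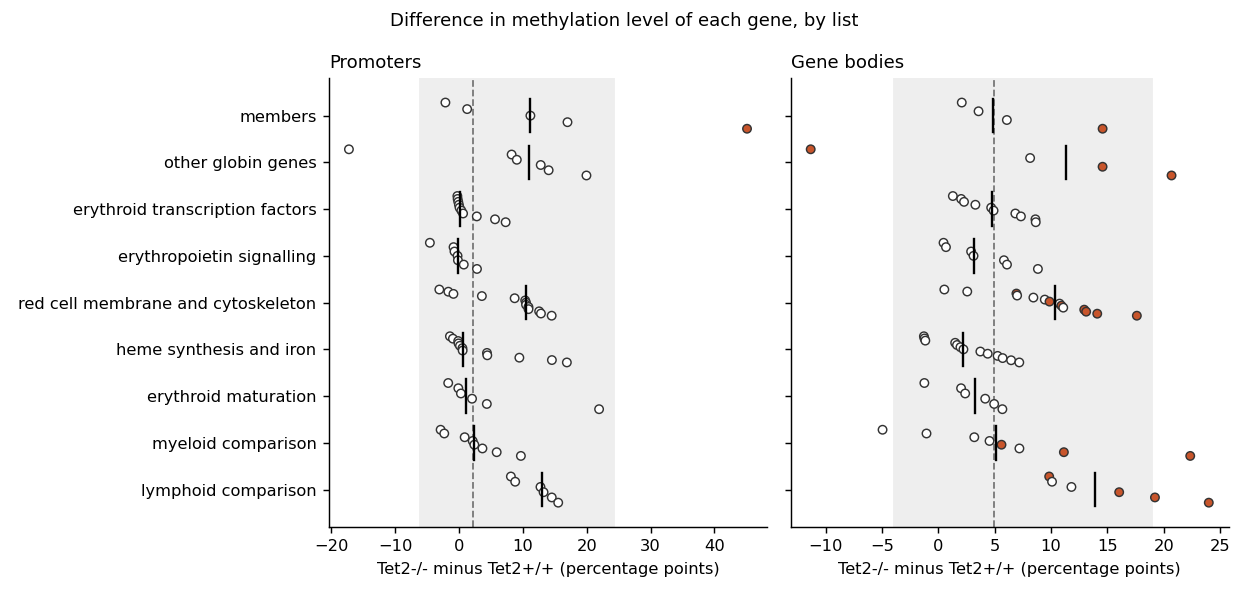
Difference in methylation level (Tet2-/- minus Tet2+/+, percentage points) of each tested gene, for promoters and gene bodies, by list. Filled points passed the edgeR test, black lines are list medians, the dashed line is the median of all genes and the grey band holds the middle 95% of them. The Hba-a1 promoter lies far to the right of the band at 45.1 points, and 7 of 14 bodies of red cell membrane genes passed.

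In gene bodies, 10 of 54 other erythroid genes were called, 9 higher and 1 lower, and the median difference was 5.10 points, where all bodies had 4.95 and 15.5% were called. The calls fell in 2 lists. Besides the 3 globin genes, 7 of 14 genes of the red cell membrane and cytoskeleton rose, among them Rhd, Kel, Aqp1, Epb42 and Add2, with a list median of 10.3 points. Rhd, which encodes a blood group antigen, had 64.3% and 52.8% in Tet2+/+ and 71.4%, 83.0% and 74.1% in Tet2-/- (edgeR adjusted p = 0.00011). These genes were named after their values were seen. None of the tested bodies among 10 transcription factors, 7 genes of erythropoietin signalling, 13 of heme synthesis and iron and 6 of maturation was called, with medians of 4.78, 3.11, 2.22 and 3.26 points. Of the lists for other lineages, 3 of 8 myeloid and 4 of 6 lymphoid bodies rose, with medians of 5.06 and 13.9 points, so that gains of this size were present at genes of other blood lineages too. Without library 24 edgeR called 1 of the other erythroid bodies, without library 7 it called 4, and limma called 1, in each case of 54, against 0.425%, 10.5% and 0.565% of all bodies. The 1 body called without library 24 and by limma was Hbq1a, and the 7 membrane genes were lost in both (for Rhd, adjusted p = 0.25 and 0.096).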

How the data were processed

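Bisulfite-converted DNA of sorted blasts was made into libraries with random primers and sequenced by the authors. Per the labels, reads were processed with FastQC 0.11.7, Trim Galore 0.4.3, Bismark 0.19.1 and Bowtie2 on GRCm38; by the study's methods alignment was non-directional and duplicates were removed by position; limits given for a count of 0 cover counting error only. The deposited files give, for each CpG cytosine, raw counts of its methylated and its unmethylated calls. Calls of both strands were added per dyad and summed over regions of GENCODE release 21 genes. Repeated sequence, as at the globin copies, had few calls.

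Where no library fell under 20 calls, a region entered edgeR 4.0.16 (quasi-likelihood, 1 coefficient per library, Benjamini-Hochberg at 0.05), which replaced the study's t-test; the exact permutation test over libraries cannot go below 0.1. Alternatives were DESeq2 1.42.0, limma 3.58.1 (log2 of methylated over unmethylated counts, 2 added to each), other minima, region sizes and dyad sets, thinning and leaving out each library. A 75-base window was unique if it occurred once in the converted genome of both strands. All 8 members were to be named, with other globin genes by level, other erythroid genes by a passed promoter test, the 3 promoters most alike, and at most 3 lowest and 3 most changed windows a locus. Members and lists were chosen with earlier results of these data known. The labels name no batch, so none could be compared, and nothing but the mouse of origin defines a replicate. Ahsp, which was not matched by symbol, and the promoter of Slc25a37 were not analysed here. Some genes of the lists are counted but not reported by name here.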

Additional observations from a re-analysis of the deposited data

How the results depend on the processing

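No paired analysis was possible because the groups share no replicate numbers (23 and 24 against 5, 7 and 8). In the fits that leave out a Tet2+/+ library the remaining one is assumed to vary like the others.

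Of the members, 1 promoter was called in the fit as reported, and 0 with a minimum of 50 calls, with dyads called in all 5 libraries, with unique dyads and with 500 bp on each side, settings under which Hba-a1 was not tested, and 0 with limma after subtraction of each library's median. Leaving out 1 library gave 0 to 0 calls, in fits that called 0% to 1.51% of all promoters. Of the bodies 1 was called, 2 with a minimum of 10 calls, 0 with limma or limma after subtraction, and 0 to 1 without 1 library (0.425% to 16.2% of all bodies). Of the flanks 3 were called, 0 with limma or limma after subtraction, 1 with the globin copies summed, and 0 to 4 without 1 library. Both limma fits called 0 of all 21492 flanks, and the fits without 1 library 0.689% to 20.7%. Of the other erythroid genes, 0 promoters were called (1 by the likelihood ratio test, 0 to 0 without 1 library) and 10 bodies (1 with limma, 0 with limma after subtraction, 1 to 9 without 1 library). The cause of these changes was not tested, apart from the settings that left regions untested.

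Direction changed only at regions that were not called. The Klf1 promoter gave -0.39 points after thinning, -1.47 with 2000 bp on each side, from -0.407 to 3.67 without 1 library and, relative to the median promoter, -0.39 on the log2 scale. The Tfrc promoter gave 0.265 points with 500 bp on each side, and the Hba-a2 flanks -2.92 with 5 kb. Without 1 library the Hba-x promoter gave -1.77 to 19.9 and the Epor body -1.21 to 8.33, the lowest of both without library 24. Relative to the median region, on the log2 scale, the Epor body gave -0.20, the Tfrc body -0.30, and the flanks of Klf1 -0.15, Epor -0.068 and Hba-a2 -0.013. Over 34 single regions and all their alternatives (558 values), 473 kept direction and side of the threshold, 70 lost the call, 2 gained it and 13 changed direction. Depth limits the globin genes, of which 3 promoters and 4 bodies were not tested.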
